A study of Mus musculus with 19 samples.

Results

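RNA of 8 genes that characterise undifferentiated mouse embryonic stem (ES) cells, but are not their core transcription factors, was followed through differentiation, AICAR treatment and re-established stem cell lines. The genes are Dppa2, Dppa4, Dppa5a, L1td1, Khdc3, Tcl1, Fgf4 and Fbxo15. They were chosen by name, and each is 1 of the 22756 gene entries counted in each of 19 libraries. All 8 had reads in undifferentiated cells and passed the filter on low counts in every tested comparison. The Dppa2 and Dppa4 proteins bind each other on chromatin, keep the promoters of developmental genes ready for use and help activate genes of the 2-cell embryo. Dppa5a, L1td1 and Khdc3 are RNA-binding or RNA-associated proteins of early embryos and ES cells, Tcl1 boosts the kinase Akt, Fgf4 is the secreted signal that pushes ES cells towards differentiation, and Fbxo15 is a substrate receptor of a ubiquitin ligase.

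All libraries came from 1 mouse ES cell line, Rex1 GFPd2, which carries a destabilised green fluorescent protein (GFP) as a reporter of the naive-state gene Rex1 (Zfp42). There was 1 library of undifferentiated cells in Lif+2i (the cytokine LIF with inhibitors of MEK and GSK3), 1 of cells after 2 days in serum differentiation medium, and 1 of cells sorted at day 2 as negative for GFP and for the stem cell surface antigen SSEA1. Such sorted cells were kept in differentiation medium to day 15. Without AICAR they gave 1 library (day 15 untreated). With AICAR, a nucleoside that activates the energy sensor AMPK, they gave 1 library of the whole culture, 1 of its GFP-negative cells and 3 of its GFP-positive cells. Lines grown out from GFP-positive cells and kept in Lif+2i gave 8 libraries from picked colonies (colony lines 1, 3, 4, 5, 6, 7, 9 and 10) and 2 from sorted cells (sorted lines). The undifferentiated cells and the lines therefore share a medium that the AICAR cells and day-15 cells did not have. Nothing in the labels ties the replicates to independent cultures. The p-values therefore speak of the scatter among these libraries, which may be technical. The labels' sorting field lists the first day-2 library as sorted too and the AICAR fractions as unsorted, and the GFP field lists the library here called the whole AICAR culture as negative. The sample titles, which give that library no GFP sign, were followed, so whether it holds GFP-positive cells is uncertain.

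Reads in genes numbered 5771671 to 8262357 in 17 libraries. The other 2, GFP-positive replicates 1 and 2, had 12751260 and 14233421 and form a sequencing project of their own. GFP-positive replicate 3 is in the first project with all other libraries, so project and replicate cannot be told apart within that group. Replicate 3 also stands apart in markers of some other cell types, given with the replicate values below. Counts are given as CPM, each library's reads scaled to a common total with TMM factors. The summed level of 5 ES cell markers (Pou5f1, Sox2, Nanog, Zfp42 and Esrrb) was 3350 CPM in undifferentiated cells, 47.9 at day 15 untreated, 1260 in the whole AICAR culture, 971 in its GFP-negative cells, 2330 to 3250 in GFP-positive cells and 3180 to 3390 in colony lines. The labelled undifferentiated state and its loss by day 15 are thus visible in the markers. Zfp42 is the reporter's own gene, so sorting by GFP bears on its part of the sums in sorted cells. In whole-population RNA, fewer cells of a type and less RNA per cell cannot be told apart, and this holds for every level below.

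RefSeq start-site windows (build GRCm38.p6, while the reads were counted on mm9) were at hand for 4 of the 8 genes. They are shown because they contrast 2 genes that had at most 2 reads at day 2, Tcl1 and Khdc3, with 2 that stayed at or above their starting level, Fgf4 and L1td1. Each run is the 250 bases before the start, 5′ to 3′ on the gene's own strand, and capitals mark the letters of a GC box. The windows lie at chr12:105222738-105222987 (minus strand) for Tcl1, chr9:73102148-73102397 (plus) for Khdc3, chr7:144861136-144861385 (plus) for Fgf4 and chr4:98726504-98726753 (plus) for L1td1.
Tcl1: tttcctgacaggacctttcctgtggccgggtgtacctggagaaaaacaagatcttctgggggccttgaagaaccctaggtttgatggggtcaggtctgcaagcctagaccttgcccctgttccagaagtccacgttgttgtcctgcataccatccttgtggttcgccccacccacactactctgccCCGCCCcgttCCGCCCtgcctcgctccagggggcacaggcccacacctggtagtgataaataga
Khdc3: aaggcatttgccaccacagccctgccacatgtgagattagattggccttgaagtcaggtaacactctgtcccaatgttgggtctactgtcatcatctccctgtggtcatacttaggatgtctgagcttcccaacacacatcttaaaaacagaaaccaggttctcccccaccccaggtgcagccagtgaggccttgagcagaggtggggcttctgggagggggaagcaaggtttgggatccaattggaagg
Fgf4: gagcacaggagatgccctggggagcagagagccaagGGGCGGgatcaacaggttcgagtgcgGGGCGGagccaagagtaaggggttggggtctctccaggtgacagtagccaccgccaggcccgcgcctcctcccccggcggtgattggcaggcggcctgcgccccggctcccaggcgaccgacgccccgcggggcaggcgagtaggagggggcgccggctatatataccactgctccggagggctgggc
L1td1: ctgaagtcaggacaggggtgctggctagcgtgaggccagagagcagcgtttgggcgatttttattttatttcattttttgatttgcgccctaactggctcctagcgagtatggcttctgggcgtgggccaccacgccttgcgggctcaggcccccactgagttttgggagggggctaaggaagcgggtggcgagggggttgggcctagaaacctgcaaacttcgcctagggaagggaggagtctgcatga
The share of G and C was 57.6% for Tcl1, 52.4% for Khdc3, 71.2% for Fgf4 and 57.6% for L1td1, against a median of 52.4% over 32851 windows of that length. Searched on both strands were the octamer ATGCAAAT of Oct factors, the Sox core AACAAT, the Esrrb site TCAAGGTCA, the GC box GGGCGG and the TATA box TATAAA, none of which contains another. They occur in 1.6%, 9.42%, 0.387%, 32.7% and 12.4% of all windows, in that order. The Tcl1 window holds the GC box on the minus strand 64 and 54 bases before the start, and the Fgf4 window on the plus strand 214 and 188 bases before it. The Khdc3 and L1td1 windows hold none of the 5. A GC box thus stood in 1 gene of each kind.

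Dppa2 and Dppa4 are neighbours in the genome and encode partner proteins, yet they differed at day 2. Dppa2 stood at 162 CPM in undifferentiated cells, 96.9 at day 2, 89.2 in day-2 sorted cells and 2.65 at day 15 untreated. With AICAR it stood at 37.9 CPM in the whole culture, 36.8 in GFP-negative cells and 88.5, 91.9 and 55.9 in GFP-positive replicates 1, 2 and 3. Colony lines ranged from 128 to 177 CPM around a median of 157, and sorted lines had 181 and 168. GFP-positive cells were therefore near the day-2 level and below every line.

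Dppa4 stood at 108 CPM in undifferentiated cells, 134 at day 2, 122 in day-2 sorted cells and 4.27 at day 15 untreated. It was 59.5 CPM in the whole AICAR culture, 47.5 in GFP-negative cells and 118, 110 and 84.3 in GFP-positive replicates 1, 2 and 3. Colony lines held 126 to 143 CPM (median 133) and sorted lines 135 and 133. Dppa4 was thus not below its undifferentiated level at day 2, and the GFP-positive replicates straddle that level.

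Among the RNA-binding proteins, Dppa5a had the highest level per length of the 8 genes in each of the 9 groups, at 2721 RPKM (reads scaled to library depth and to the length of the gene model) in undifferentiated cells against 278 for L1td1, the next, and 14.4 for Khdc3, the lowest. Its CPM was 1255 in undifferentiated cells, 554 at day 2, 498 in day-2 sorted cells and 9.0 at day 15 untreated. The AICAR values were 288 CPM in the whole culture, 220 in GFP-negative cells and 786, 709 and 481 in GFP-positive replicates 1, 2 and 3. Colony lines had 791 to 1075 CPM (median 881) and sorted lines 936 and 893, so that no line reached the undifferentiated library. Dppa5a has near-identical copies elsewhere in the genome. Only uniquely mapped reads were counted, so its level is less certain than that of the other genes.

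L1td1, an RNA-binding protein derived from a retrotransposon and very abundant in ES cells, stood at 721 CPM in undifferentiated cells, 807 at day 2, 739 in day-2 sorted cells and 15.9 at day 15 untreated. It was 463 CPM in the whole AICAR culture, 421 in GFP-negative cells and 869, 923 and 733 in GFP-positive replicates 1, 2 and 3. Colony lines had 901 to 1119 CPM (median 1047) and sorted lines 922 and 921. Every GFP-positive and line library was above the undifferentiated one.

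Khdc3 (Filia), a protein of the oocyte's subcortical maternal complex that also guards genome integrity in ES cells, had 136 reads (20.8 CPM) in undifferentiated cells. It had 2 reads at day 2, 0 in day-2 sorted cells and 1 at day 15 untreated. It reached 2.75 CPM in the whole AICAR culture, 1.58 in GFP-negative cells and 3.09, 6.0 and 13.3 in GFP-positive replicates 1, 2 and 3. Colony lines ranged from 8.10 to 36.3 CPM around a median of 28.8, and sorted lines had 32.0 and 27.2. Khdc3 was the most variable of the 8 genes in GFP-positive cells and in colony lines alike.

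Of the signalling genes, Tcl1 had 147 reads (22.5 CPM) in undifferentiated cells, 0 at day 2, 1 in day-2 sorted cells and 0 at day 15 untreated. It stood at 3.16 CPM in the whole AICAR culture, 1.58 in GFP-negative cells and 5.27, 7.12 and 8.58 in GFP-positive replicates 1, 2 and 3. Colony lines had 13.1 to 26.4 CPM (median 22.0) and sorted lines 19.7 and 20.6. The GFP-positive cells were above every differentiated library and below every line.

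Fgf4, whose signal through FGF receptors and ERK primes ES cells for differentiation, stood at 31.1 CPM in undifferentiated cells, 45.2 at day 2, 31.2 in day-2 sorted cells and 0.693 (6 reads) at day 15 untreated. It was 19.4 CPM in the whole AICAR culture, 13.5 in GFP-negative cells and 38.1, 38.1 and 39.6 in GFP-positive replicates 1, 2 and 3. Colony lines had 43.1 to 52.0 CPM (median 47.5) and sorted lines 44.6 and 47.7. The 3 GFP-positive replicates differed by less than counting error alone would give, a coefficient of variation (CV) of 2.23% against 4.56% from counting.

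Fbxo15, whose locus has long served as a reporter of the ES cell state, stood at 254 CPM in undifferentiated cells, 18.5 at day 2, 13.9 in day-2 sorted cells and 12.9 at day 15 untreated. Unlike Tcl1 and Khdc3 it kept 93 to 142 reads in these 3 libraries. It was 51.4 CPM in the whole AICAR culture, 54.0 in GFP-negative cells and 78.9, 64.9 and 113 in GFP-positive replicates 1, 2 and 3. Colony lines had 194 to 296 CPM (median 254) and sorted lines 280 and 281. The GFP-positive cells lay between the differentiated cells and the lines with no overlap on either side.

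**Figure D1:**
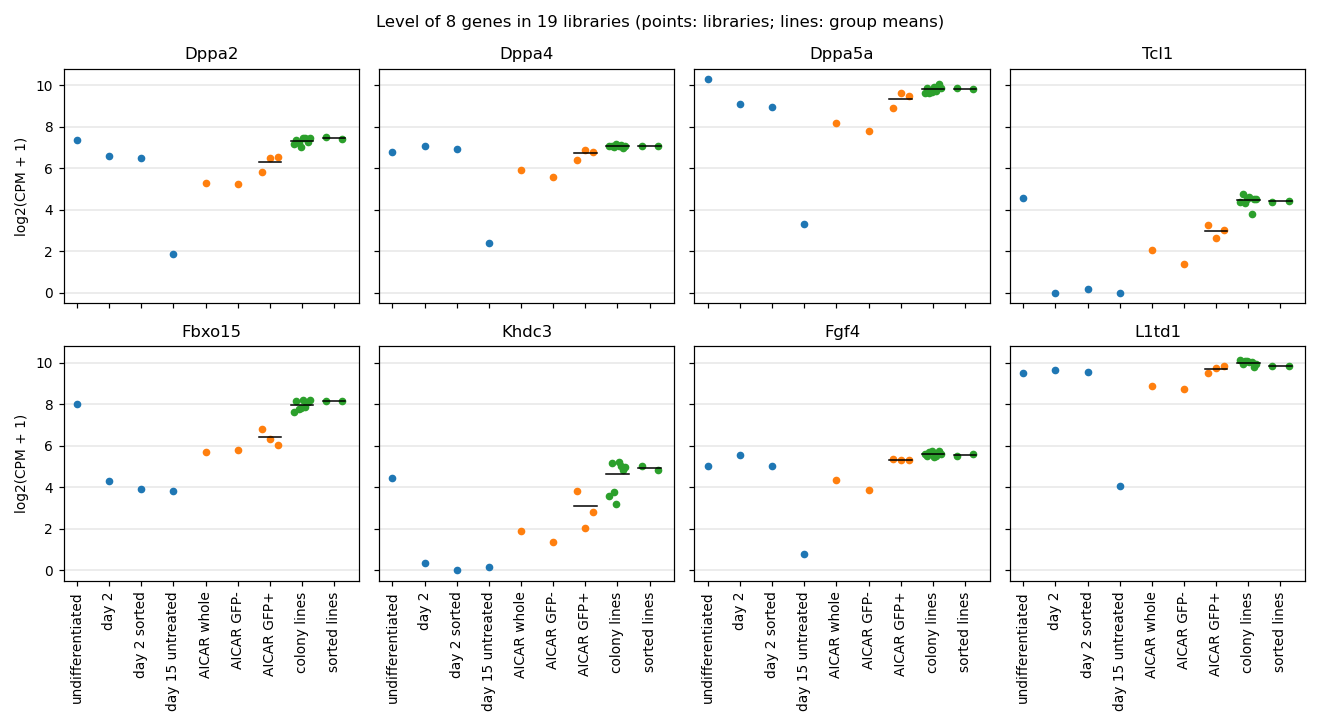
Level of each of the 8 genes in each of the 19 libraries, as log2(CPM + 1) on the vertical axis against sample group on the horizontal axis. Points are libraries and black lines the means of groups with more than 1 library (GFP-positive n = 3, colony lines n = 8, sorted lines n = 2); Tcl1, Khdc3 and Fbxo15 are low in both day-2 groups and at day 15 untreated and reach 93.0 to 115% of the undifferentiated level in colony lines, while the other 5 genes are low at day 15 untreated.

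The first step of differentiation was asked of the day-2 libraries, each compared with undifferentiated cells. Both sides hold 1 library, so these ratios have no replicate check and no p-value, and their 95% intervals cover counting error only. At day 2, 4 of the 8 genes were more than 2-fold lower and 0 higher. Of 9763 genes with at least 50 reads in 1 of the libraries, 8.92% were lower and 9.34% higher by that measure. Tcl1 was at least 57.7-fold lower, set against a floor of 3 reads, Khdc3 80.0-fold (21.7 to 667), Fbxo15 13.7-fold (11.6 to 16.4) and Dppa5a 2.27-fold (2.18 to 2.35). Dppa2 was 1.67-fold lower (1.52 to 1.84), whereas Dppa4 was 1.24-fold (1.12 to 1.36), Fgf4 1.45-fold (1.22 to 1.74) and L1td1 1.12-fold higher (1.08 to 1.16). The median log2 ratio of the 8 genes was -0.96, and -0.01 over all genes with enough reads.

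In the day-2 sorted cells the same 4 genes were past 2-fold lower and 0 higher, beside 9.43% of 9677 genes lower and 10.1% higher. Khdc3 was at least 46.6-fold lower, Tcl1 151-fold (26.7 to 6010, from 1 read), Fbxo15 18.3-fold (14.9 to 22.8) and Dppa5a 2.52-fold (2.42 to 2.62). Dppa2 was 1.81-fold lower (1.64 to 2.01). Dppa4 was 1.13-fold higher (1.02 to 1.25), and the intervals of Fgf4 (0.822 to 1.22) and L1td1 (0.985 to 1.07) hold a ratio of 1. The starting cells of the AICAR culture had therefore nearly lost Tcl1, Khdc3 and most Fbxo15 RNA and still held RNA of the other 5.

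By day 15 without AICAR all 8 genes were past 2-fold below undifferentiated cells, beside 23.0% of 11502 genes lower and 30.4% higher. The ratios were 139-fold for Dppa5a (112 to 176), 60.9-fold for Dppa2 (40.4 to 96.5), 45.3-fold for L1td1 (38.2 to 54.0) and 44.9-fold for Fgf4 (20.3 to 124). Dppa4 was 25.3-fold lower (18.1 to 36.2) and Fbxo15 19.7-fold (16.2 to 24.0). Khdc3 was 181-fold lower (31.9 to 7180, from 1 read) and Tcl1 at least 65.0-fold. The median log2 ratio was -5.64 for the 8 genes and 0.05 for all genes. Mesenchyme markers (6 genes, among them Col1a1 and Col3a1) summed to 33000 CPM in this library against 9.19 in undifferentiated cells, and 4 markers of stratified epithelium to 1230 against 0.46. The part of these other cell types in the fall of the 8 genes was not tested.

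Set against the day-2 sorted cells from which the culture was grown, 5 of the 6 genes with enough reads were past 2-fold lower at day 15, beside 21.3% of 11554 genes lower and 28.7% higher. They were Dppa5a (55.3-fold, 44.2 to 70.1), L1td1 (46.4-fold, 39.2 to 55.4), Fgf4 (45.0-fold, 20.3 to 124), Dppa2 (33.6-fold, 22.2 to 53.4) and Dppa4 (28.6-fold, 20.5 to 40.9). Fbxo15 stood at 12.9 CPM at day 15 and 13.9 in day-2 sorted cells, 1.07-fold lower at day 15 with an interval of 0.806 to 1.43, so no difference was detectable beyond counting error. Tcl1 and Khdc3 had at most 1 read in either library and are given no ratio.

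What AICAR did in the whole culture was asked against day 15 untreated, again with 1 library a side. All 6 genes with enough reads were past 2-fold higher, beside 10.1% of 11386 genes higher and 17.1% lower. Dppa5a was 32.0-fold higher (25.5 to 40.6), L1td1 29.0-fold (24.5 to 34.7), Fgf4 28.0-fold (12.5 to 77.5), Dppa2 14.3-fold (9.33 to 22.9), Dppa4 13.9-fold (9.95 to 20.1) and Fbxo15 3.98-fold (3.21 to 4.96). Tcl1 had 23 reads against 0, at least 9.13-fold higher, and Khdc3 20 against 1, 23.8-fold higher (3.81 to 987). The levels reached were 13.2 to 64.1% of the undifferentiated library, lowest for Khdc3 and highest for L1td1. Between the same libraries, day 15 untreated and whole AICAR culture, mesenchyme markers summed to 33000 and 7270 CPM, stratified epithelium markers to 1230 and 12, and endoderm markers to 297 and 946, and their part was not tested.

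The GFP-negative cells of the AICAR culture lacked the reporter but not these RNAs. Against day 15 untreated, all 6 genes with enough reads were past 2-fold higher, beside 12.2% of 11352 genes higher and 20.8% lower. The ratios ran from 4.18-fold for Fbxo15 (3.37 to 5.22) to 26.4-fold for L1td1 (22.3 to 31.6). Tcl1 and Khdc3 had 10 reads each, against 0 and 1. Against the whole AICAR culture none of the 6 passed 2-fold, beside 3.4% of 10115 genes higher and 7.48% lower. Fgf4 was the farthest apart, 1.44-fold lower in GFP-negative cells (1.09 to 1.91), and Dppa2 (0.864 to 1.23 as a fold interval) and Fbxo15 (0.905 to 1.22) did not differ beyond counting error. Endoderm markers (7 genes, among them Gata4, Gata6 and Cubn) summed to 852 CPM in GFP-negative cells, 946 in the whole culture and 120 to 844 in GFP-positive cells. Their part in these ratios was not tested.

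GFP-positive cells were compared with 6 groups by the edgeR quasi-likelihood test, with p-values adjusted over all genes tested. These comparisons share the 3 GFP-positive libraries, so their results are not independent of one another. Where the other side is a single library, the test assumes that this library varies like the GFP-positive cells.

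All 8 genes were higher in GFP-positive cells than at day 15 untreated, where 23.1% of 14857 genes tested were higher and 23.2% lower. These are 3430 and 3453 genes, which became 2079 and 2523 without GFP-positive replicate 1 and 1311 and 1552 without replicate 2. Dppa2 and Dppa4 were 29.8-fold and 24.5-fold higher, with log2 fold changes of 4.90 ± 0.48 (SE) and 4.61 ± 0.33 and edgeR adjusted p of 0.00373 and 0.00247. The RNA-binding genes Dppa5a and L1td1 were 73.5-fold and 53.2-fold higher, at log2 6.20 ± 0.46 and 5.73 ± 0.29 (edgeR adjusted p = 0.00263 and 0.00169). Fgf4 was 55.2-fold higher (5.79 ± 0.30, edgeR adjusted p = 0.00172). The smallest difference was that of Fbxo15, 6.63-fold (2.73 ± 0.40, edgeR adjusted p = 0.00775), whose untreated level was not near 0. Tcl1 passed as well (edgeR adjusted p = 0.0055) and was at least 20.2-fold higher, the untreated library having 0 reads. Khdc3 was 58.4-fold higher with a counting interval of 10.4 to 2310 (edgeR adjusted p = 0.0306), and its call was lost without GFP-positive replicate 2 (edgeR adjusted p = 0.0754). The median log2 fold change of the 8 genes was 5.76, or 5.31 with Tcl1 set at its floor, against -0.03 over all genes. Markers of some other cell types were lower in GFP-positive cells, with calls for 6 of 6 mesenchyme, 4 of 4 stratified epithelium and 4 of 4 tested heart muscle genes. Genes near 0 in 1 group enter such a test only through the group where they are high. Lum (0.037 CPM in GFP-positive cells against 282) and Krt15 (0.037 against 212) are examples. Which markers were tested, and so the share called, was thus largely set by the filter. Of 7 endoderm markers 1 was lower and 0 higher, while of 4 germ cell markers 3 were higher and 0 lower. The part of these cell types in the difference was not tested.

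**Figure D2:**
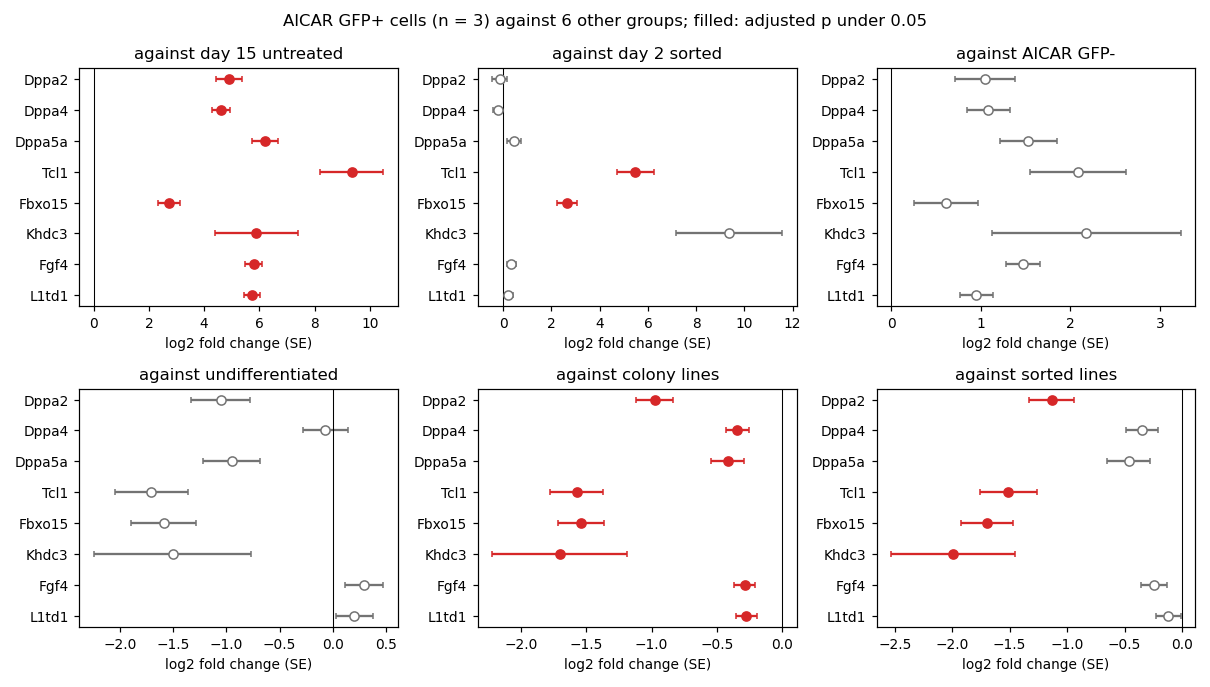
Log2 fold change of each gene in GFP-positive cells (n = 3 libraries) against 6 other groups, with standard errors as bars, a vertical line at 0, and filled red points for edgeR adjusted p under 0.05. Horizontal scales differ between panels. All 8 genes lie above 0 against day 15 untreated and all 8 below 0 against colony lines; the values of Tcl1 (against day 15) and Khdc3 (against day-2 sorted cells) are fitted against 0 reads and are no bound.

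Relative to the day-2 sorted cells they descend from, GFP-positive cells were higher in 2 of the 8 genes, both among the 3 that were low by then. Those 3 were singled out by their low level in this same library, which favours a higher level in the other group. Tcl1 was 45.7-fold higher with a counting interval of 8.13 to 1810 (log2 5.47 ± 0.76, edgeR adjusted p = 0.031), and Fbxo15 6.27-fold (2.65 ± 0.42, edgeR adjusted p = 0.0365). Khdc3, at 0 reads in the sorted cells and at least 16.7-fold higher in GFP-positive cells, did not pass (edgeR adjusted p = 0.071) but was called by DESeq2. These 2 calls of 8 stand beside 3.18% of 13857 genes higher and 2.6% lower. The other 5 genes did not pass, with log2 differences from -0.20 ± 0.21 for Dppa4 to 0.43 ± 0.29 for Dppa5a. Both calls were lost without GFP-positive replicate 2, and that of Fbxo15 also without replicate 1. Without replicate 3 there were 4.

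No gene of the 8, and none of 13821 genes tested, passed between GFP-positive and GFP-negative cells (0.0% higher and 0.0% lower), although all 3 GFP-positive libraries lay above the GFP-negative one for each of the 8. Over all genes tested, 39.3% had all 3 above. At an unadjusted p under 0.05, 6 of the 8 were higher, and over all genes 1428 (10.3%) were higher and 1594 lower. DESeq2 called 5 of the 8 and, over all genes, 638 higher and 566 lower. Without GFP-positive replicate 3, edgeR called 6 of the 8 higher. The log2 differences were 2.18 ± 1.05 for Khdc3, 2.09 ± 0.54 for Tcl1, 1.53 ± 0.32 for Dppa5a, 1.47 ± 0.19 for Fgf4, 1.08 ± 0.24 for Dppa4, 1.05 ± 0.33 for Dppa2, 0.95 ± 0.18 for L1td1 and 0.62 ± 0.36 for Fbxo15 (SE). Their edgeR adjusted p ran from 0.138 to 0.355. Zfp42, the reporter's own gene, differed by 3.26 ± 0.32 on the same scale (edgeR adjusted p = 0.138). Mesenchyme markers summed to 326 CPM in GFP-negative cells and 0.828 to 90.2 in GFP-positive cells, and their part in the difference was not tested.

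Measured against the undifferentiated cells, none of the 8 genes passed (2.43% of 13640 genes were higher and 2.62% lower). At an unadjusted p under 0.05, 4 were lower and 0 higher, beside 14% of all genes tested lower and 15.3% higher, and DESeq2 called those 4. Fbxo15 and Tcl1 came closest, 3.01-fold and 3.27-fold lower, at log2 -1.59 ± 0.31 and -1.71 ± 0.34 (edgeR adjusted p = 0.0522 and 0.0543). Dppa2 (-1.06 ± 0.28) and Dppa5a (-0.95 ± 0.27) had edgeR adjusted p of 0.0828 and 0.0932. Khdc3 differed by -1.51 ± 0.74 with an edgeR adjusted p of 0.242. Dppa4 (-0.07 ± 0.21), L1td1 (0.20 ± 0.17) and Fgf4 (0.29 ± 0.18) were closest to the undifferentiated library. As shares of the undifferentiated level, Tcl1, Fbxo15 and Khdc3 stood at 31.0 to 35.8% in GFP-positive cells and the other 5 at 48.7 to 124%. Without GFP-positive replicate 3, edgeR called 5 of the 8 lower, the fifth being Khdc3.

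All 8 genes were lower in GFP-positive cells than in the colony lines derived from such cells, beside 27.6% of 12225 genes lower and 30.3% higher. The difference was small for L1td1 (log2 -0.27 ± 0.08, edgeR adjusted p = 0.00903), Fgf4 (-0.29 ± 0.08, 0.00672), Dppa4 (-0.34 ± 0.09, 0.00378) and Dppa5a (-0.42 ± 0.13, 0.0133). It was 1.96-fold for Dppa2 (-0.97 ± 0.14, edgeR adjusted p = 5.47e-05). It was larger for the 3 genes that were low at day 2: 2.91-fold for Fbxo15 (-1.54 ± 0.18, edgeR adjusted p = 6.67e-06), 2.98-fold for Tcl1 (-1.57 ± 0.20, 1.69e-05) and 3.26-fold for Khdc3 (-1.70 ± 0.52, 0.0116). Endoderm markers differed as well, at 120 to 844 CPM summed in GFP-positive cells and 1.9 to 15.8 in colony lines (6 of 6 tested higher), and their part was not tested. The 844 CPM was in replicate 3, against 124 and 120 in replicates 1 and 2. Markers near 0 in the lines, such as Amn at 0.154 CPM, entered the test only through GFP-positive cells. The count of 6 was thus largely set by the filter. The libraries of the 2 groups did not overlap for 6 of the 8 genes and overlapped for Khdc3 and L1td1, while 43.5% of all genes tested did not overlap. The call of Dppa5a was lost without GFP-positive replicate 3 (edgeR adjusted p = 0.0627). That of Khdc3 was lost without replicate 1, without replicate 2 and in the first sequencing project alone, where its p was highest (edgeR adjusted p = 0.331). In that project alone, with replicate 3 as the only GFP-positive library, the call of Fgf4 was lost as well (edgeR adjusted p = 0.121).

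Sorted lines gave 4 calls, all lower in GFP-positive cells, beside 17.5% of 12593 genes lower and 36.7% changed in either direction. Khdc3 differed by -1.99 ± 0.54, Fbxo15 by -1.70 ± 0.23, Tcl1 by -1.51 ± 0.25 and Dppa2 by -1.14 ± 0.20 on the log2 scale, with edgeR adjusted p of 0.0302, 0.00357, 0.0063 and 0.00768. Dppa4 (-0.35 ± 0.14), Dppa5a (-0.46 ± 0.19), Fgf4 (-0.24 ± 0.11) and L1td1 (-0.12 ± 0.11) did not pass. The 4 calls all need both sorted lines: without sorted line 1 or sorted line 2 there were 0. Over all genes the calls dropped too, from 2407 higher and 2210 lower to 150 and 171 without line 1 and to 179 and 208 without line 2. Without GFP-positive replicate 3, and with the replicate number as a block, Dppa4 and Dppa5a were called as well. These are not 2 separate checks. No sorted line has the number 3, so in the block fit GFP-positive replicate 3 adds nothing to the difference. The call of Khdc3 was also lost without GFP-positive replicate 2.

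Among the GFP-positive replicates themselves, replicate 3, the library of the first sequencing project, was lower in Dppa2, Dppa5a, Dppa4 and L1td1 (0.62, 0.643, 0.74 and 0.819 of the mean of replicates 1 and 2). It was higher in Khdc3 (2.93), Fbxo15 (1.57) and Tcl1 (1.39), and level in Fgf4 (1.04). So the 3 genes that were low at day 2 were highest in the replicate in which Dppa2, Dppa4 and Dppa5a were lowest. Replicate 3 also had more RNA of some other cell types: the 7 endoderm markers summed to 844 CPM there against 124 and 120 in replicates 1 and 2, and the 6 mesenchyme markers to 90.2 against 0.828 and 1.65. Stratified epithelium markers summed to 4.95 CPM against 0.301 and 0.527. Heart muscle markers (2.53 against 3.01 and 3.89) and germ cell markers (89.9 against 86.2 and 116) were not higher than in both other replicates. The 5 ES cell markers summed to 2330 CPM against 3250 and 2970. The part of these cells, of the project and of the depth was not tested.

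Among the 8 colony lines the genes differed widely in how evenly they were kept. Over 8770 genes with a mean of at least 50 reads the median CV was 10.7%. Dppa4 (CV 4.2%), L1td1 (6.78%) and Fgf4 (7.48%) lay below it, Dppa5a (11%) and Dppa2 (11.2%) close to it, and Fbxo15 (15.7%) and Tcl1 (18.7%) above it. Khdc3 had a CV of 48.2%, larger than that of 99.4% of these genes, and its highest line was 4.48-fold above its lowest. Counting error alone would give Khdc3 a CV of 7.99%.

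The lines low in Khdc3 were line 5 at 8.10 CPM, line 1 at 11 and line 4 at 12.4, while the other 5 lines held 27.1 to 36.3. The same 3 lines were the lowest in Dppa2 and, with line 7, the lowest 4 in Dppa5a and Fbxo15 and the highest 4 in L1td1. Line 7 was lowest in Tcl1, at 13.1 CPM against 18.8 to 26.4 in the others, and highest in Dppa2. These lines were singled out after their values were seen, and no test was made of the split. Chi-square statistics between whole libraries were 2.9 to 4.09 times the degrees of freedom among lines 1, 4 and 5. Among lines 3, 6, 9 and 10 they were 1.96 to 6.34, between the 2 sets 8.31 to 15.0, and from line 7 to the others 7.3 to 14.9. The split was thus not confined to the 8 genes. No single line stood apart from the other 7 by Dixon's gap test in any of the 8 genes.

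**Figure D3:**
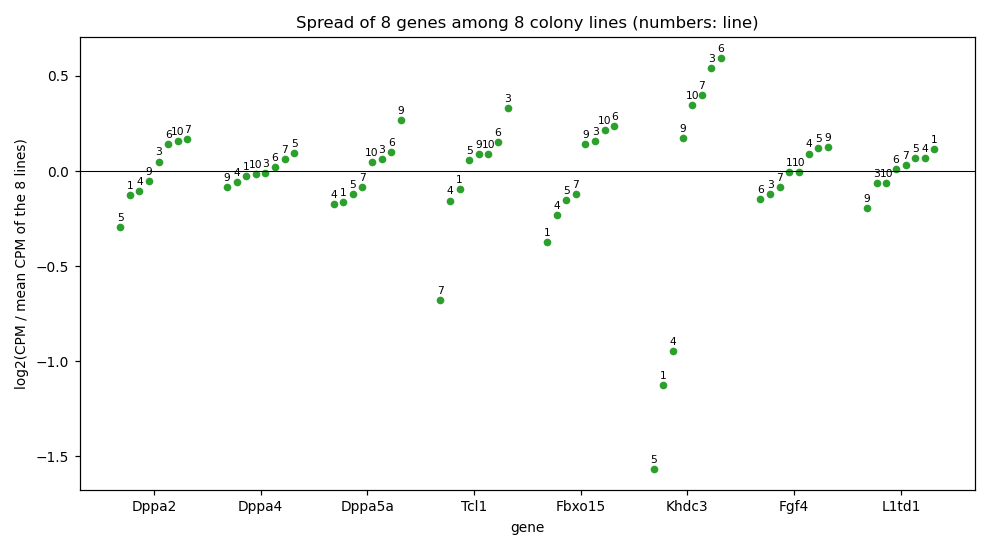
Level of each gene in each of the 8 colony lines relative to the mean of the lines, as log2(CPM / mean CPM), with points ordered from low to high within a gene and numbered by line. Khdc3 spreads from line 5 (8.10 CPM) to line 6 (36.3 CPM), while the lines differ least in Dppa4.

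Colony lines and sorted lines did not differ in any of the 8 genes by edgeR, nor in any of 11870 genes (0.0% higher and 0.0% lower), and the ranges of the 2 kinds of line overlapped for all 8. DESeq2 gave 0 calls as well, and at an unadjusted p under 0.05 none of the 8 was counted, with 532 genes higher and 560 lower overall. The differences ran from -0.31 ± 0.43 for Khdc3 to 0.16 ± 0.08 for L1td1 (log2, SE).

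Against the undifferentiated library the colony lines gave 0 calls among the 8 genes, beside 0.00812% of 12314 genes higher and 0.0244% lower. At an unadjusted p under 0.05, 3 were higher, namely Fgf4 (log2 0.60 ± 0.14), L1td1 (0.50 ± 0.11) and Dppa4 (0.29 ± 0.10), and 1 lower, Dppa5a (-0.51 ± 0.14). Over all genes tested, 10.5% were higher and 8.84% lower at that p. For these 4 all 8 lines lay on 1 side of the undifferentiated library, as they did for 44.4% of all genes tested, and the edgeR adjusted p were 0.113, 0.102, 0.169 and 0.132. DESeq2 called 2 higher and 1 lower, and without colony line 9 edgeR called 1 higher and 1 lower. Tcl1 (-0.12 ± 0.25), Fbxo15 (-0.03 ± 0.20), Dppa2 (-0.06 ± 0.15) and Khdc3 (0.18 ± 0.65) had the undifferentiated library within the range of the lines.

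The 8 genes were put in 2 sets by their level in day-2 sorted cells. The split was chosen after the values were seen and is given as a description. The 3 low genes stood at 0.0 to 5.46% of the undifferentiated level there and the other 5 at 39.7 to 113%. Dppa5a, past 2-fold lower, is the lowest of the 5. Pearson r was taken across the 9 group means of log2(CPM + 1), which include both day-2 groups. The split thus enters the r values, which are no separate support for it. Dppa2, Dppa4, Dppa5a, Fgf4 and L1td1 were alike, with Pearson r of 0.955 to 0.994 over their 10 pairs. Tcl1, Khdc3 and Fbxo15 were alike, with r of 0.987 to 0.993 over 3 pairs. The 15 pairs between the sets had r of 0.467 to 0.642. The partners Dppa2 and Dppa4 had an r of 0.972, below that of Dppa4 with Fgf4 (0.994). All points share the same libraries and their scaling.

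**Figure D4:**
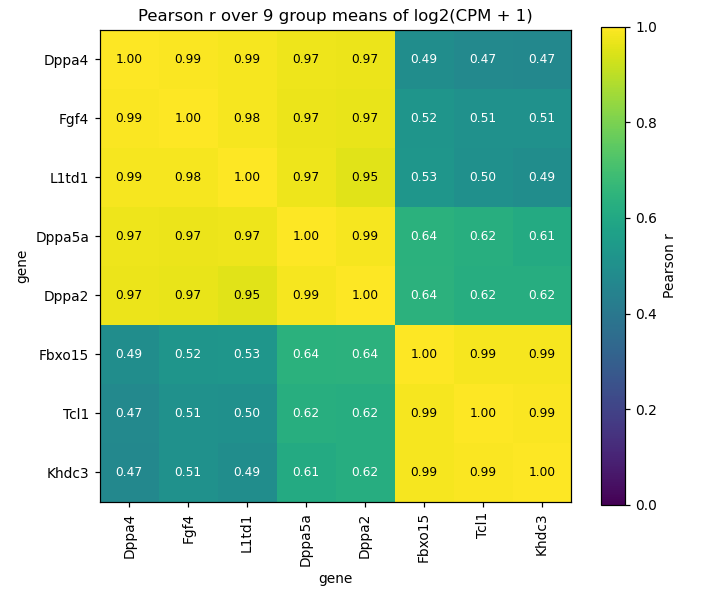
Pearson r between each pair of the 8 genes over the 9 group means of log2(CPM + 1), with both axes listing the genes and colour and number giving r. Dppa4, Fgf4, L1td1, Dppa5a and Dppa2 form 1 block (0.955 to 0.994) and Fbxo15, Tcl1 and Khdc3 another (0.987 to 0.993), with 0.467 to 0.642 between the blocks.

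Genes outside the 8 with the most similar course over the 9 groups were sought among 11030 genes that reached 10 CPM in a group. For Dppa2 they were Gdf3 (r = 0.996), Ilf2 (0.994) and Uba1y (0.993), and for Dppa4 Pmm1 (0.995), Abcf1 and the joined entry Mak16+Tti2 (0.994 each). For Dppa5a they were the joined entry Fancl+Vrk2 (0.996), Mrps18b (0.993) and Rpl10l (0.992). L1td1 was most like the zinc finger family entries Gm13242 and Gm13247 (0.996 each) and Zfp534 (0.995), and Fgf4 most like Abcf1 (0.995), Pmm1 and Dph2 (0.99 each). Tcl1 was most like the peptide transporter Slc15a1 (0.994), Manba (0.992) and Laptm5 (0.991), and Khdc3 most like Manba (0.99), Laptm5 (0.988) and the naive factor Klf2 (0.986). Fbxo15 was most like Fam63a (0.995), the joined entry Gm10818+Tnk2 (0.984) and Klf2 (0.983). Slc15a1 shows the course shared with Tcl1: 31.3 CPM in undifferentiated cells, 0.0 at day 2, 0.346 at day 15 untreated, 10.1 in GFP-positive cells and 22.0 in colony lines. Gdf3, a growth factor of ES cells, shows that of Dppa2: 118 CPM, 75.1, 0.346, 43.5 and 115 in the same groups. Pearson r ignores the size of a change, and some of these genes moved far less. Ilf2 stood at 93.6 CPM at day 15 untreated and 233 in sorted lines, where Dppa2 had 2.65 and 175. Abcf1 stood at 134 at day 15 untreated and 364 in colony lines, where Fgf4 had 0.693 and 47.7. Each r is also a top value picked from 11030 genes over 9 points.

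Genes that work with the 8 were read from lists, beginning with the neighbours and targets of Dppa2 and Dppa4. Beside each list count stands the share of all genes tested in the same comparison. In GFP-positive cells 23.1% were higher and 23.2% lower against day 15 untreated, and 30.3% and 27.6% against colony lines. Against day-2 sorted cells the shares were 3.18% and 2.6%. Morc1, which lies on the other side of Dppa2 and silences transposons in germ cells, stood at 243 CPM in undifferentiated cells, 60.7 in day-2 sorted cells, 2.77 at day 15 untreated, 126 ± 30 (SD, n = 3) in GFP-positive cells and 278 ± 15 (SD, n = 8) in colony lines. Of 13 genes of the 2-cell embryo linked to Dppa2 and Dppa4, 6 were tested against colony lines, and all 6 were lower in GFP-positive cells, with a median log2 fold change of -5.52 against 0.03 for all genes. Zscan4c, a 2-cell factor, was 1.56 ± 1.19 CPM against 85.9 ± 57.4 (edgeR adjusted p = 5.1e-05), and the joined entry with Gm4340 3.78 ± 2.92 against 218 ± 148 (edgeR adjusted p = 4.6e-05). Against day-2 sorted cells 8 of 9 tested were lower (median -8.18, or -6.77 with genes at 0 reads set at their floor). Genes near 0 in GFP-positive cells enter such a test only through the group where they are high. Which genes were tested, and so the share lower, was thus largely set by the filter. Against day 15 untreated 4 were tested, and 0 were higher and 0 lower. These families hold near-identical copies, and the entry named for Gm4340 joins 7 gene names, so the values of single copies are uncertain. With GFP-positive replicate 2 left out, no gene at all passed against day-2 sorted cells, these and the transcription factors below included. The low levels of these genes in GFP-positive cells stood beside Dppa2 at 48.7% and Dppa4 at 96.5% of the undifferentiated level. Zscan4c was at 76.8 CPM in undifferentiated cells, 701 in day-2 sorted cells and 11.8 at day 15 untreated. Dppa2 and Dppa4 were at 55.2 and 113% of the undifferentiated level in day-2 sorted cells and at 1.64 and 3.96% at day 15 untreated. The medium also differs between GFP-positive cells and lines, and no link between these levels was tested.

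For the FGF pathway, 20 ligands, receptors and feedback genes were listed. Against colony lines 10 of 18 tested were higher in GFP-positive cells and 1 lower, the opposite direction to Fgf4 itself, with a median of 0.78 against 0.03 for all genes. Dusp4, a phosphatase induced by ERK, was 41.7 ± 4.9 CPM (SD, n = 3) against 2.13 ± 0.45 (SD, n = 8), with an edgeR adjusted p of 1.45e-10. Fgf15, the neighbour of Fgf4, was 19.6 ± 4.8 against 0.612 ± 0.235 (edgeR adjusted p = 2.53e-09). The lines were grown with a MEK inhibitor, which GFP-positive cells did not have, and the part of the medium cannot be told apart from that of the cell state. Against day 15 untreated 7 of 20 were higher and 2 lower (median 0.07 against -0.03), led by the ERK-induced factors Etv5 (337 ± 44 against 20.3 CPM, edgeR adjusted p = 0.00208) and Etv4 (111 ± 12 against 10.7, edgeR adjusted p = 0.00239).

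For Tcl1, the list held its paralogs and the Akt pathway. The 5 Tcl1b paralogs each had at most 8 reads summed over the libraries of a group. Mtcp1, the other relative of Tcl1, stood at 2.76 CPM in undifferentiated cells, 2.66 at day 15 untreated and 2.51 ± 0.82 CPM in colony lines (SD, n = 8). Of 7 genes tested against day 15 untreated, 0 were higher and 2 lower in GFP-positive cells (median -0.25 against -0.03): Akt1 (46.4 ± 21.7 against 252 CPM, edgeR adjusted p = 0.0133) and Akt2 (57.1 ± 9.9 against 104, edgeR adjusted p = 0.0287). The lower count is near the share of all genes tested, 23.2%.

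Of the subcortical maternal complex, to which Khdc3 belongs in the oocyte, 6 genes were listed with 3 of the related Khdc1 family, and 3 of these 9 had enough reads for a test. Ooep, which lies beside Dppa5a and belongs to the complex, was 52.7 CPM in undifferentiated cells, 10.6 in day-2 sorted cells and 0.115 (1 read) at day 15 untreated. It was 24.6 ± 8.6 CPM in GFP-positive cells (SD, n = 3), higher than at day 15 untreated (edgeR adjusted p = 0.00439), and 39.6 ± 8.9 in colony lines. Tle6, another subunit, was lower in GFP-positive cells than in colony lines, at 4.07 ± 1.45 against 25.1 ± 6.6 CPM (edgeR adjusted p = 4.27e-06). Zbed3 was higher, at 19.7 ± 2.4 against 7.53 ± 0.51 (edgeR adjusted p = 2.15e-07). Ooep gave the other lower call of the 3, so that 1 was higher and 2 lower against colony lines, with a median of -0.66 against 0.03.

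Fbxo15 works with Skp1, Cul1 and Rbx1 in a ubiquitin ligase, and 5 such partners and regulators were listed. Against day 15 untreated 1 of 5 was higher and 0 lower in GFP-positive cells (median 0.48 against -0.03), namely Rbx1, the ring subunit, at 85.7 ± 15.5 against 42.8 CPM (edgeR adjusted p = 0.0322). The higher count is near the share of all genes tested, 23.1%. Against colony lines 0 were higher and 2 lower (median -0.07 against 0.03), Cand1 at 344 ± 10 against 486 ± 46 CPM (edgeR adjusted p = 0.000285) and Cul1, the scaffold, at 183 ± 26 against 241 ± 13 (edgeR adjusted p = 0.00164).

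Other genes named for their expression in ES cells, and the transcription factors of the state, were counted beside the 8. Of 18 ES cell-associated genes, 16 of 17 tested were higher in GFP-positive cells than at day 15 untreated and 0 lower (median 4.58 against -0.03), among them Utf1 at 376 ± 61 against 5.08 CPM (edgeR adjusted p = 0.00177). Of 13 naive and core transcription factors 12 were higher and 0 lower (median 5.34), among them Sox2 at 530 ± 77 against 13.2 CPM (edgeR adjusted p = 0.00178). Against day-2 sorted cells the 2 lists differed in their counts: 12 of the 13 factors were higher (median 4.20 against 0.07), and of 17 ES cell-associated genes 3 were higher and 2 lower (median 0.07). The 8 genes, with 2 higher, had a median of 0.38 there. Among the 13 factors is Zfp42, whose reporter was used to sort both groups, so its direction was largely set by the sort. Against colony lines 9 of 13 factors were lower and 2 higher (median -0.34), Nanog at 227 ± 35 against 512 ± 44 CPM (edgeR adjusted p = 7.17e-07) and Klf4 the other way, at 292 ± 30 against 152 ± 17 (edgeR adjusted p = 1.57e-06). Of 16 ES cell-associated genes 10 were lower and 3 higher (median -0.37), and the median of the 8 was -0.70.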

How the data were processed

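Each library came with 1 table of genes. Per the file headers, the authors ran rpkmforgenes with RefSeq gene models, left out 3' untranslated regions and kept only uniquely mapped reads, and the deposited counts are whole and not normalized. The deposited RPKM values, made by the authors with the same tool, are printed as they stand; levels were compared between genes only on that scale. The submitters' processing notes list bcl2fastq, CASAVA 1.8.2, Trimmomatic 0.3.3, TopHat2 2.0.14, Bowtie2 2.2.5 and the build mm9.

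Tests on the counts used edgeR 4.0.16 in R 4.3.3 (quasi-likelihood, TMM scaling, filterByExpr with 10 reads as its minimum and 15 in total). Benjamini-Hochberg adjustment ran over all genes tested, and an adjusted p under 0.05 was a call. Only the 2 groups compared entered a fit, and the code was tested on simulated data. Alternatives were DESeq2 1.42.0, RLE scaling, no filter, 1 fit over all 19 libraries, the first sequencing project alone, a replicate block and each library left out. For 1 library against 1, CPM plus a prior count of 2 gave log2 ratios among genes with 50 reads, with exact 95% counting intervals and a threshold of 2-fold. Libraries at 0 were set to 3 reads for lower bounds. The reads carry no molecular identifiers, so intervals and floors describe counting error and nothing else.

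The genes named are the 8, the 3 genes most like each over 9 group means, and the 2 genes of a list with the smallest adjusted p in a comparison described. Some results that this rule selects are not reported here. Neighbours of the 8, Mtcp1 and Zfp42 were added after their values were seen. Genes and lists were chosen with earlier results of these data known. Replicates of a group were compared in 32 pairs, and their chi-square statistics were 1.96 to 51.0 times the degrees of freedom, so none was a repeat of another library.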

Additional observations from a re-analysis of the deposited data

How the results depend on the processing

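Under other settings the counts of the 8 genes stayed within 1.5 times in 172 repeats and moved further in 18, and single genes changed sign in 12 repeats, all for genes that did not pass. Against GFP-negative cells, the count higher was 0 and became 5 with DESeq2, 6 with all 19 libraries in one fit (over all genes 1815 higher and 1733 lower), and 0 to 6 with a GFP-positive replicate left out. Against day-2 sorted cells it was 2 and became 0 to 4 with a replicate left out. Against undifferentiated cells the count lower was 0 and became 1 with RLE scaling, 2 with no filter, 4 with DESeq2, 4 with all libraries in one fit, and 0 to 5 with a replicate left out. Against sorted lines the count lower was 4 and became 7 in the first sequencing project alone (over all genes 3842 lower), where 1 GFP-positive library is assumed to vary like the sorted lines, and 0 to 6 with a library left out. Colony lines against undifferentiated cells went from 0 higher and 0 lower to 2 and 1 with DESeq2 and, with a line left out, to 0 to 1 for either, the 1 being without line 9. With libraries left out in turn, values that changed sign ran from -0.29 to 0.02 for Dppa2 against day-2 sorted cells and from -0.16 to 0.04 for Dppa4 against undifferentiated cells, both positive without GFP-positive replicate 3. Between colony and sorted lines they ran from -0.02 to 0.02 for Dppa4 (0.00 with RLE scaling, 0.01 with no filter and with DESeq2) and from -0.08 to 0.00 for Dppa5a. Fbxo15 in colony lines against undifferentiated cells ran from -0.07 to 0.01, positive without line 1. The cause was not tested, except that leaving out libraries lowers the number of samples. Over all genes, GFP-positive cells against GFP-negative, day-2 sorted and undifferentiated cells gave 1744 higher and 2209 lower, 2108 and 2044, and 2037 and 2121 without replicate 3, and 0 and 0 in each without replicate 2. DESeq2 gave 1103 and 873 against day-2 sorted cells, 1079 and 1028 against undifferentiated cells, and 293 and 94 for colony lines against undifferentiated cells. With the replicate block, GFP-positive cells against sorted lines gave 3550 higher and 3401 lower genes in place of 2407 and 2210. Of the 8 genes 6 were lower in place of 4. No sorted line has the number 3, so in this fit GFP-positive replicate 3 adds nothing to the difference. Leaving it out without a block gave 3323 higher and 3191 lower. Deviations of same-numbered libraries correlated at r = 0.032. With 2 such libraries a side this is 1 value, which cannot decide whether they are paired. Scaling to total reads moved the median log2 ratio of all genes from 0.05 to 0.27 for day 15 untreated against undifferentiated cells and changed no count of the 8. In the first project alone the comparisons of GFP-positive cells with single libraries have 1 library a side and were not tested.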
